A study of Mus musculus with 12 samples.

Results

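The comparison described here follows 1 mouse embryonic stem (ES) cell line, labelled WT+1343KO-a14 and called the 1343KO line, from its undifferentiated culture (day 0) to the end of a differentiation culture (day 16). Its members are the 2 libraries of that line at day 16 and the 2 at day 0, chosen by genotype and time labels, 4 of the 12 libraries in the table. The other groups used are the same line at day 8 (2 libraries) and the wild type line (WT) at days 0 and 16 (2 libraries each), with WT at day 8 (2 libraries) shown in plots alone. At day 0 both lines grew on gelatin in serum with leukaemia inhibitory factor (LIF), the cytokine that holds mouse ES cells undifferentiated. For differentiation the cells were moved to serum medium without LIF on plates they could not attach to, where they formed floating aggregates called embryoid bodies. The labels give ES cells as the cell type at every time point. The 1343KO line is a single line with the suffix a14, and neither the deleted gene behind its number nor the meaning of the leading WT+ is given in the labels. The title of the series links knockouts of lincRNAs and the small nucleolar RNA SNORA73 to leaving pluripotency, so the question here is how far this line moved away from the ES cell state in 16 days.

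Mouse ES cells correspond to the early epiblast of the embryo. In the naive state, LIF acts through Stat3 on factors such as Klf4, Tfcp2l1, Tbx3 and Esrrb, which share targets with the core factors Pou5f1 (Oct4), Sox2 and Nanog. On leaving it, cells pass through a formative state marked by Otx2, Fgf5 and Dnmt3b, and then respond to Nodal, Wnt, BMP and FGF signals to form the primitive streak, mesoderm, endoderm and ectoderm, while ES cell factors are shut down. In long embryoid body cultures, beating heart muscle, blood, vessel cells, yolk sac endoderm and fibroblasts are common products.

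Values are FPKM, fragments scaled to transcript length and to mapped fragments, a level that can be compared between genes. Changes are differences of log2(FPKM + 1) with their standard error (SE), which understate the change of low genes, and each group has n = 2 libraries. A gene was called where limma, a linear model fitted across all genes, gave an adjusted p under 0.05. Nothing in the labels says that the 2 libraries of a group came from separate cultures, so these p-values measure only the spread between libraries, which may be technical. These are bulk samples, in which fewer cells of a type and less RNA per cell cannot be told apart. Across the 12 libraries, replicates correlated at 0.970 to 0.975 over genes, and between 12909 and 14069 genes reached 1 FPKM. The 1343KO libraries of day 0 correlated with those of day 16 at 0.934, and the same value for WT was 0.767, correlations across genes that are given as a description. Snhg3 (ENSMUSG00000085241, GRCm38 chromosome 4, 132348014 to 132353686), the noncoding host gene of the mouse SNORA73 copies, was listed in the 1343KO line at 1.57 and 0 FPKM at day 0 and at 0 in both day 16 libraries, against 61.1 and 47.0 in WT at day 0. Snhg3 therefore had no call over time in the 1343KO line (adjusted p = 0.347). Snora73a was listed at 0 in all 4 of these libraries, and libraries made by poly(A) selection do not measure snoRNAs well. Rcc1, whose gene overlaps Snhg3, was at 49.1 and 43.5 and then at 33.7 and 33 (-0.46 ± 0.15, adjusted p = 0.0493), a call that ended without any 1 of the 4 libraries (adjusted p = 0.205, 0.0828, 0.134 and 0.159).

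Of 16289 genes tested, 4368 (26.8%) were called between day 0 and day 16 in the 1343KO line, 2967 higher (18.2%) and 1401 lower (8.6%). Most calls were modest in size: 1287 rose by more than 1 on the log2 scale and 177 by more than 2, and 346 fell by more than 1 and 57 by more than 2. The median change of all genes was 0.106, and with libraries scaled by median of ratios it was 0.029, which gave 2450 higher and 1850 lower. Without day 16 replicate 2 there were 2906 calls.

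RNAs of core pluripotency genes were still abundant at day 16. Of 20 genes of general pluripotency, all of them tested, 13 fell, 0 rose and 7 were not called, with a median change of -0.46. Over all genes tested 8.6% fell and 18.2% rose. Pou5f1 (chromosome 17, 35506018 to 35510772), the gene for Oct4, stood at 851 and 801 FPKM at day 0 and at 419 and 397 at day 16. Both day 16 libraries lay below both day 0 libraries, at about 0.494 of the starting mean, and the fall was called (log2 change -1.02 ± 0.09 (SE), adjusted p = 7.75e-05). Nanog went from 206 and 210 to 139 and 158 (-0.48 ± 0.08, adjusted p = 0.00244).

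Sox2, which pairs with Oct4 on DNA, was at 188 and 187 at day 0 and at 172 and 191 at day 16, groups that overlap (log2 change -0.05 ± 0.08, adjusted p = 0.723). Sall4, a zinc finger partner of Oct4, had 74.2 and 66.9, then 62.3 and 60.1 FPKM. Utf1, a chromatin factor of ES cells, had 232 and 239, then 207 and 209, and Lin28a, which blocks maturation of let-7 microRNAs, had 139 and 137, then 133 and 127. The last 3 had lower values at day 16 in both libraries and were not called (adjusted p = 0.217 for Sall4, 0.252 for Utf1 and 0.278 for Lin28a), though Lin28a was called lower under median-of-ratios scaling (0.0355). The larger falls of the list were those of Tdgf1 (Cripto, the Nodal co-receptor), from 482 and 437 to 170 and 173, and of Dppa2, a chromatin factor of early embryos, from 103 and 98.3 to 41.2 and 38.3. L1td1, an RNA-binding protein of pluripotent cells, fell by 0.91 ± 0.06 (355 and 321 to 176 and 182), and Trim28, a corepressor that silences retroviral elements, fell by 0.35 ± 0.05. In WT all 20 of these genes fell (28.5% of all genes tested did so), with a median change of -3.81, and the change differed between the lines for all 20 in the test of that difference (40% of all genes tested passed that test, 21.7% in this direction). Pou5f1 in WT, for example, was at 762 and 761 at day 0 and at 23.6 and 18.6 at day 16.

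**Figure D1:**
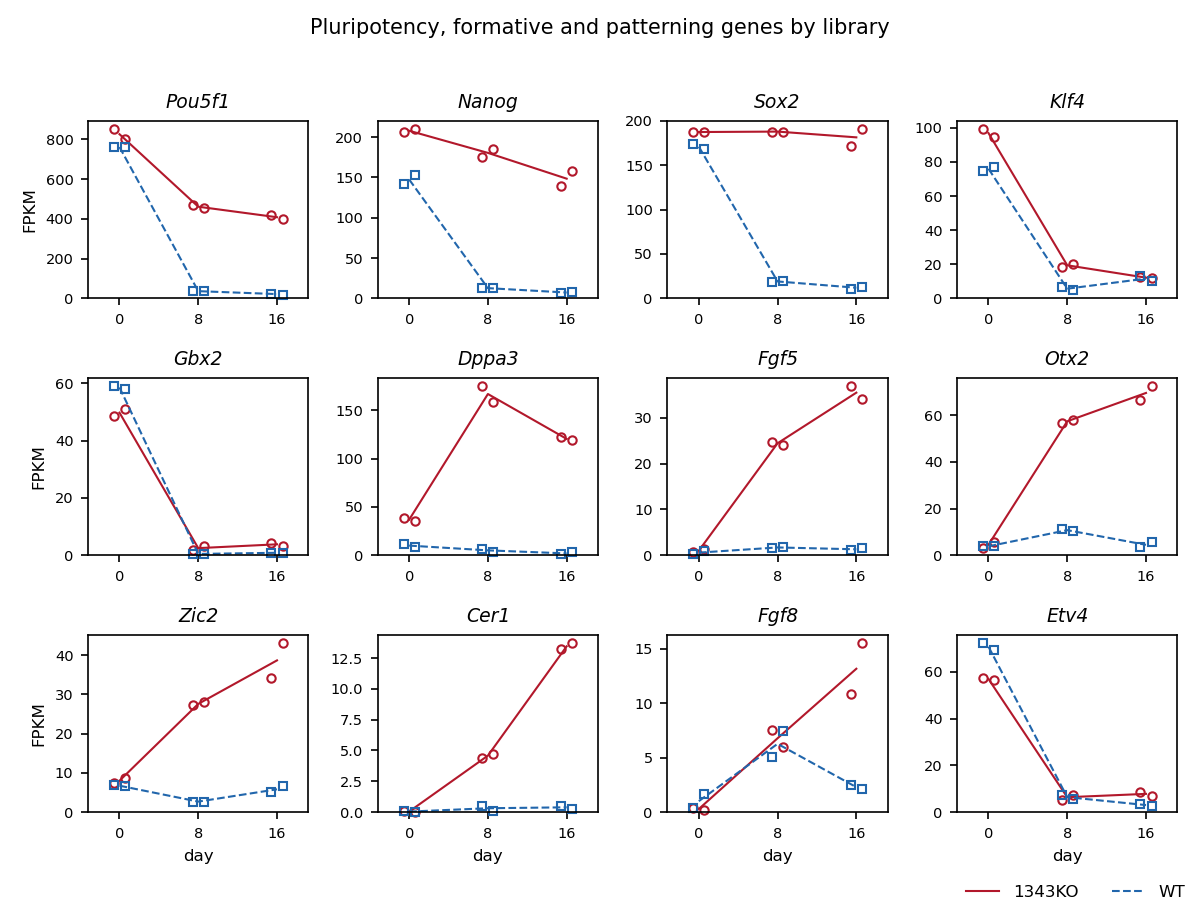
FPKM of 12 genes (vertical axes, linear, each from 0) at days 0, 8 and 16; circles are the 2 libraries of the 1343KO line, squares the 2 of WT, and lines join group means. In the 1343KO line Pou5f1 stays above 390 FPKM and Sox2 above 170 at day 16. Gbx2 lies near the axis by day 8, and Klf4 is at 18.4 and 20.3 at day 8. Fgf5, Otx2 and Cer1 in the 1343KO line are higher at day 16 than in any WT library.

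Naive genes fell further, though unequally. Of 22 tested, 15 fell, 2 rose and 5 were not called (median -0.77), against 8.6% lower and 18.2% higher over all genes. Klf4, a Kruppel-like factor and a direct Stat3 target, fell from 99.3 and 94.5 to 12.3 and 11.9 FPKM (log2 change -2.90 ± 0.15, adjusted p = 2.65e-06), 0.125 of its day 0 mean. Socs3, the feedback inhibitor of the LIF receptor, went from 33.3 and 36.7 to 5.61 and 6.5, and Stat3 itself from 13.6 and 17.4 to 6 and 7.41. Gbx2, a homeobox gene also induced by LIF, was at 48.6 and 51 and then at 4.29 and 3.32 (-3.41 ± 0.21). All of these had libraries at day 16 well below every library at day 0.

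Other members of the naive network kept more of their RNA. Esrrb, a nuclear receptor, was at 109 and 113 at day 0 and at 74.8 and 73.5 at day 16, a called fall of 0.57 ± 0.12. Zfp42 (Rex1) fell from 149 and 157 to 72.1 and 72.2. Tfcp2l1 fell from 26.9 and 26.1 to 16.4 and 15.8, and Dppa5a, an RNA-binding protein that was the most abundant of these at 1864 and 1957, fell to 1222 and 1210. Klf5 and Tbx3 lay between these and Klf4, with log2 changes of -1.48 ± 0.10 and -1.32 ± 0.14.

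Both naive genes that rose were Klf2 and Dppa3. Klf2, another Kruppel-like factor of the naive state, rose from 50.6 and 54 to 86.7 and 82.6 (log2 change 0.68 ± 0.11, adjusted p = 0.00237). Dppa3 (Stella), which protects methylation in the zygote and marks early germ cells, rose from 38.2 and 35.4 to 122 and 119 (1.69 ± 0.33, adjusted p = 0.00565). Their day 8 values, 101 and 95.9 for Klf2 and 175 and 159 for Dppa3, were higher still. In WT both fell, by 2.59 and 2.03 on the log2 scale.

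FGF signalling through ERK pushes ES cells out of the naive state and induces its own inhibitors. Of 20 genes of this list 8 rose and 8 fell (median -0.08), against 18.2% higher and 8.6% lower over all genes. The ES cell ligand Fgf4 fell from 85.3 and 75.1 to 39.3 and 40.2. Among ERK-induced genes, Spry4 fell from 37.2 and 35.3 to 5.46 and 6.28 (-2.44 ± 0.15), and the ETS factor Etv4 fell from 57.4 and 56.4 to 8.76 and 6.85 (-2.73 ± 0.18). Spry2, Spred1 and Spred2, inhibitors of the same cascade, fell as well, by 0.79 ± 0.11, 1.08 ± 0.10 and 0.57 ± 0.10. Dusp6, an ERK phosphatase, was not called (48.6 and 41.9, then 36.6 and 35.5; adjusted p = 0.0637), but was called lower under TPM scaling (0.0306), median-of-ratios scaling (0.0238) and the replicate block (0.0483). Etv5 was not called (81.6 and 83.5, then 84 and 85.7; adjusted p = 0.782). In the opposite direction, the phosphatase Dusp4 rose from 4.8 and 5.49 to 24.2 and 25.6, Spry1 rose by 1.07 ± 0.13, and the receptors Fgfr1 and Fgfr2 rose by 0.43 ± 0.08 and 0.91 ± 0.12. The list therefore split within single families: Spry1 rose where Spry2 and Spry4 fell, and Etv4 fell where Etv5 had nearly equal values.

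Formative genes rose. Of 19 tested, 12 rose, 3 fell and 4 were not called (median 0.86), against 18.2% higher and 8.6% lower over all genes. Fgf5 (chromosome 5, 98254184 to 98277030), a growth factor that marks the epiblast after implantation, had the largest rise of any named gene. It was at 0.68 and 1.3 FPKM at day 0 and at 36.9 and 34.1 at day 16 (log2 change 4.21 ± 0.22, adjusted p = 3.31e-06). Otx2, the homeobox factor that drives exit from the naive state, rose from 3.26 and 5.73 to 66.6 and 72.6 (3.72 ± 0.23, adjusted p = 8.86e-06). Zic2, a zinc finger factor, rose from 7.38 and 8.63 to 34.2 and 43.2, and Zic5 from 10.5 and 11.8 to 21.7 and 20.1. For each of these, day 16 libraries lay above day 0 libraries with no overlap.

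Other formative genes that rose were Pim2, a kinase (27.5 and 28 to 91.7 and 86.9), Sox4 (10.2 and 12.2 to 32 and 32.2), Sall2 (log2 change 1.75 ± 0.13) and the mesenchymal cadherin Cdh2 (1.63 and 1.68 to 9.75 and 9.32). Tcf15, a helix-loop-helix factor that primes ES cells early, went the other way, from 87.7 and 98.1 to 14.5 and 13. In WT at day 16 Fgf5 was at 1.03 and 1.55 and Otx2 at 3.32 and 5.59. The change differed between the lines for 14 of the 19, all in the direction of higher in the 1343KO line (21.7% of all genes).

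Genes of DNA methylation, not all of them enzymes, moved in both directions: of 13 genes 3 rose and 6 fell. The share that rose was near the 18.2% of all genes, and 8.6% of all genes fell. Dnmt3b, the de novo methyltransferase of the epiblast, rose from 86 and 85.1 to 124 and 134 (0.58 ± 0.07), while Dnmt3a fell from 78.6 and 90.3 to 42.5 and 47.1. The maintenance enzyme Dnmt1 had 38.8 and 38.5, then 38.4 and 36.3 (adjusted p = 0.7). Tet1 and Tet2, which oxidise methylcytosine, fell from 147 and 133 to 38.1 and 42.4 and from 24.8 and 26.4 to 7 and 7.03. Tet3, the third enzyme of that family, rose from 2.09 and 2.35 to 5.11 and 4.38 (0.83 ± 0.14). Zfp57, which guards methylation at imprinted loci, fell from 214 and 204 to 62 and 65.3.

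Genes of the 2-cell-like state, a rare condition within ES cultures in which Zscan4 genes are active, were low at day 16. Of 14 entries 9 were tested. No count over them is given, because most reached the filter of 1 FPKM through day 0 libraries, 2 of them through the 1343KO day 0 libraries alone. Zscan4f was at 10.3 and 12.1 FPKM and then at 1.29 and 1.65, and Zscan4c at 7.34 and 6.88 and then at 1.2 and 0.319. The Zscan4 copies are near-identical, so their reads may have been split among them and single members are uncertain. Of 20 tested germ line genes 4 rose and 5 fell, and 1 of the 20 passed the filter only through the 1343KO day 0 libraries, which favours a fall. The 4 rises were a share near the 18.2% of all genes called higher, and 8.6% of all genes were called lower. Stra8, a retinoic acid target of meiosis, fell from 20.6 and 19.6 to 3.46 and 2.76, and the RNA helicase Ddx4 from 10.3 and 9.52 to 4.25 and 4.05, while Prdm1, a repressor needed by early germ cells, rose from 2.38 and 2.38 to 13.3 and 9.21. Without day 0 replicate 2 or without day 16 replicate 2, 3 germ line genes fell.

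Nodal signalling patterns the epiblast, and its inhibitors Lefty1, Lefty2 and Cer1 are also its targets. Of 17 pathway genes 9 rose and 5 fell (median 0.50), against 18.2% higher and 8.6% lower over all genes. Leaving out 1 library at a time left 2 or 3 of the 5 falls: 3 without day 0 replicate 1, 2 without day 0 replicate 2, 2 without day 16 replicate 1 and 3 without day 16 replicate 2. Nodal itself fell from 41.8 and 40.6 to 23.2 and 26.2 (adjusted p = 0.02), a call that ended without any 1 of the 4 libraries (adjusted p between 0.0532 and 0.108). Its relative Gdf3 fell from 46.4 and 46.2 to 25.2 and 26.7 (adjusted p = 0.0106, but 0.0505 without day 0 replicate 2 and 0.0593 without day 16 replicate 1). Cer1 (chromosome 4, 82881751 to 82885148), a secreted inhibitor of Nodal, BMP and Wnt made by anterior endoderm, was at 0.0944 and 0 at day 0 and at 13.2 and 13.7 at day 16 (log2 change 3.79 ± 0.21, adjusted p = 3.98e-06). Lefty2 rose from 28 and 23.6 to 62.3 and 64.1 (1.27 ± 0.17). Cfc1, a co-receptor of the Cripto family, rose from 0.366 and 0 to 4.52 and 8.54, and Furin, a protease that matures the Nodal precursor, from 4.58 and 5.43 to 15.2 and 14.4. The receptor-regulated Smad3 rose from 3.1 and 3.64 to 9.7 and 10.2, and the inhibitory Smad7 fell by 0.61 ± 0.10. Inhbb (chromosome 1, 119415465 to 119422248), which encodes the beta B subunit of activin, had the largest fall of any named gene, from 24.4 and 25.7 to 0.891 and 0.696 (-3.86 ± 0.16, adjusted p = 1.09e-06).

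Some primitive streak and early patterning genes rose from low levels. Of 17 entries 13 were tested, with 6 higher and 1 lower, against 18.2% higher and 8.6% lower over all genes. T (Brachyury), the T-box factor of the streak, was at 0.37 and 0.219 and then at 7.31 and 7.08 (2.66 ± 0.20, adjusted p = 2.71e-05). Eomes, the T-box factor of anterior streak and trophoblast, rose from 1.3 and 1.38 to 9.28 and 8.7. Fgf8 went from 0.358 and 0.218 to 10.8 and 15.5, Lhx1, a LIM homeobox factor of the organiser, from 0.154 and 0.0541 to 5.65 and 5.72, and Gsc (Goosecoid) from 0.28 and 0.392 to 2.8 and 2.34. Dkk1, a Wnt antagonist of the head organiser, rose from 0.576 and 0.36 to 4.89 and 4.95. Cdx1, a caudal factor of the posterior embryo, fell from 2.53 and 2.1 to 0.441 and 0. All of these except Cdx1 ended above every day 0 library and at or below about 16 FPKM, and Mixl1, another streak factor, was at or under 1 FPKM in both day 16 libraries.

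Among Wnt genes 15 of 25 tested rose and 1 fell (median 0.74), with 9 higher without day 16 replicate 1 and 9 without day 16 replicate 2. The receptors Fzd7 (24.6 and 26.1 to 49 and 50.4) and Fzd2 (4.09 and 4.22 to 15.7 and 20.2) rose, as did the nuclear effector Tcf7 (16.5 and 19 to 31.1 and 29.6). The common Wnt readout Axin2, a feedback inhibitor, was at 4.33 and 7.79 and then at 5.33 and 6.08, overlapping groups (adjusted p = 0.958). Of 17 tested genes of BMP signalling 10 rose and 1 fell. For both lists, the shares over all genes were 18.2% higher and 8.6% lower. Bmp2, Bmp5 and Bmp7 ligands rose from under 1 FPKM to 4.03 and 4.56, 2.57 and 3, and 4.51 and 5.31. The 1 that fell was Id1, a direct BMP target, from 75.5 and 74.9 to 35.1 and 32.8. Its relatives Id3 and Id4 rose, Id3 from 20.4 and 27.3 to 37.2 and 38.7 and Id4 by 1.62 ± 0.19. Id2 was not called (adjusted p = 0.605).

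**Figure D2:**
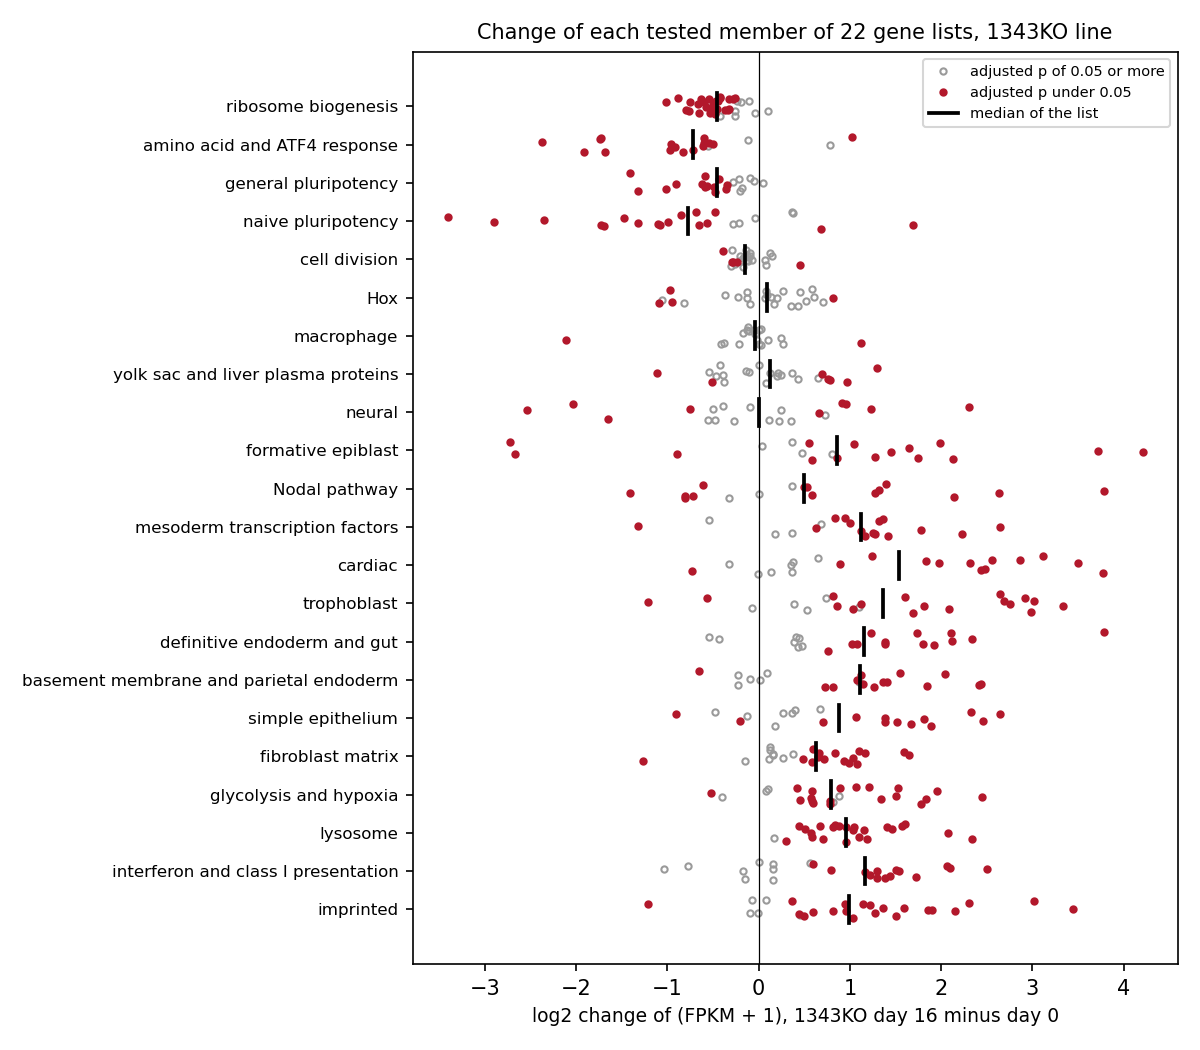
Change between day 0 and day 16 in the 1343KO line (horizontal axis, log2 of FPKM + 1) of every tested member of 22 gene lists; filled points passed an adjusted p of 0.05, open points did not, and bars are list medians. Pluripotency lists sit left of 0 with medians of -0.46 and -0.77, and the cardiac and trophoblast lists have medians of 1.53 and 1.36. The filter favoured a rise for 3 trophoblast members.

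Trophoblast genes were among the largest rises. The trophoblast forms the placenta, and its giant cells and spongiotrophoblast secrete hormones of the prolactin family, encoded by a cluster of copies on mouse chromosome 13. Of 25 entries of the trophoblast list 22 were tested, with 15 higher, 2 lower and 5 not called (median 1.36). Over all genes 18.2% were higher and 8.6% lower. Of the 22, 3 passed the filter only through the 1343KO day 16 libraries, which favours a rise for them in this count and median. The prolactin genes are shown here by the 250 bases in front of their start sites. Prolactin genes led the rises after day 8, and the sequences show how alike some copies are over these bases. They are RefSeq promoters on GRCm38.p6, written 5′ to 3′ on the gene's strand, with capitals marking TATATA, the letters of a TATA-type element, where it lies 40 to 16 bases before the start:
Prl2c3 (chr13:12800080-12800329, minus strand): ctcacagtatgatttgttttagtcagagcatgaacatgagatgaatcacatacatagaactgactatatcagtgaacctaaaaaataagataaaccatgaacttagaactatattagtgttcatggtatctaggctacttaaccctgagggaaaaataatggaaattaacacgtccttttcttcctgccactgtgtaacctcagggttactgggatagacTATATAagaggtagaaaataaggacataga
Prl7d1 (chr13:27716737-27716986, minus strand): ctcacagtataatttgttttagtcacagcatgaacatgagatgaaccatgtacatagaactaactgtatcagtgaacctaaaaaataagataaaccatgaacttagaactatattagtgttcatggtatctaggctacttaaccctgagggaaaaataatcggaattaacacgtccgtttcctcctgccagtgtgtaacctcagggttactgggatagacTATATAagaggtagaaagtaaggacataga
Prl3d1 (chr13:27093939-27094188, plus strand): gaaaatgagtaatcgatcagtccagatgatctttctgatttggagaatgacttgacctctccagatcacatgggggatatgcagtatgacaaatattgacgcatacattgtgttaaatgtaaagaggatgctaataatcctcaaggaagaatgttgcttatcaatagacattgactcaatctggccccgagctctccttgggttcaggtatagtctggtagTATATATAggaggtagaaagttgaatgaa
Prl2a1 (chr13:27801405-27801654, plus strand): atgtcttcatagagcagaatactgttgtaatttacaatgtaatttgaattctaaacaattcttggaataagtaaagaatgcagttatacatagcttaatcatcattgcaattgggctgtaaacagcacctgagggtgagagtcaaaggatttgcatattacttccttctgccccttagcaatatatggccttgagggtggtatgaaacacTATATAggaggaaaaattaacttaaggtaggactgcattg
Prl4a1 (chr13:28015962-28016211, plus strand): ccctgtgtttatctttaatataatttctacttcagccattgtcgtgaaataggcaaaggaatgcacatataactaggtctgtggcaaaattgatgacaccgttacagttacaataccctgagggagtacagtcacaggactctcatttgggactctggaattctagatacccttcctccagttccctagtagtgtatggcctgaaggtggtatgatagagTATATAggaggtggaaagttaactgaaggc

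Of 9 prolactin genes looked up, 7 had a promoter in the RefSeq table, and Prl2c2 and Prl7b1 are only named. Prl7d1 had 2 promoters there, and the sequence used is that of the first by position. TATATA reads the same on both strands. It lay in that window in 15 of 21 prolactin family genes with a promoter and in 285 of 27025 genes overall (1.05%), which describes the letters and not a site in use. Prl2c3 and Prl7d1 were 94.8% identical over these 250 bases and Prl2c3 and Prl2c5 were 96.0%, while pairs outside this group of 3 lay between 50.4% and 54.4%. These bases lie outside the transcripts, whose likeness was not measured. Whether reads were divided among the copies was not tested, so single members of the Prl2c3, Prl2c5 and Prl7d1 group remain uncertain.

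Prl2c3 was at 0.2 and 0 FPKM at day 0, at 1.2 and 0 at day 8 and at 14.5 and 15.6 at day 16 (day 0 to 16, log2 change 3.87 ± 0.33, adjusted p = 5.15e-05). It met the filter of 1 FPKM only through the 1343KO day 16 libraries, which favours its rise here, after day 8 and against WT. Prl2a1 was at 0 and 0.322, then 0.398 and 3.66, then 19.9 and 16.4 (4.05 ± 0.50, adjusted p = 0.00045). Prl4a1 was at 0 and 0.327 at day 0, listed at 0 in both day 8 libraries and at 5.25 and 6.49 at day 16 (2.57 ± 0.24, adjusted p = 9.2e-05). Apart from 1 day 8 library of Prl2a1, all 3 were close to 0 until day 8. Prl3d1 (placental lactogen I), the classical giant cell hormone, was listed at 0 in both day 0 libraries, at 0.406 and 0 at day 8 and at 7.55 and 5.67 at day 16 (adjusted p = 3.15e-05), and Prl3b1 (placental lactogen II) reached 10.7 and 10.6. In WT at day 16 these 5 genes were between 0 and 1.66 FPKM, and the change differed between the lines for each of them, by 4.02 ± 0.46 for Prl2c3 and 2.29 ± 0.34 for Prl4a1. With a pseudocount of 0.1 the difference between the lines was not called for Prl2a1 (adjusted p = 0.248), Prl3b1 (0.0971) and Prl4a1 (0.0656).

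Other placental genes had risen by day 8. Ctsj, a placental cathepsin, went from 0 and 0.17 at day 0 to 5.19 and 6.88 at day 8 and 19.3 and 15.9 at day 16. Tpbpa, the marker of spongiotrophoblast, was listed at 0 at day 0 and was at 2.53 and 4.88 at day 8 and 6.45 and 4.62 at day 16. Rhox6 and Rhox9, X-linked homeobox genes of placenta and germ cells, rose from 5.52 and 5.19 to 48.2 and 50.2 and from 6.26 and 6.96 to 49.5 and 50.4. Hand1, a helix-loop-helix factor of giant cells and also of heart and mesoderm, rose from 2.2 and 2.62 to 19 and 21.6. Factors of the trophoblast stem cell differed: Eomes rose from 1.3 and 1.38 to 9.28 and 8.7 (adjusted p = 0.00022), Cdx2 was at 0.763 and 0.585 and then 1.47 and 0.933 (adjusted p = 0.348), Ascl2 had overlapping groups (adjusted p = 0.93), and Elf5 was not tested and at or under 1 FPKM in both day 16 libraries.

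Heart muscle genes rose in the same culture. Of 22 entries 20 were tested, with 12 higher and 1 lower (median 1.53), against 18.2% higher and 8.6% lower over all genes. Of the 20, 1 passed the filter only through the 1343KO day 0 libraries, which favours a fall for it. Actc1 (chromosome 2, 114047282 to 114053548), cardiac actin, was at 0.116 and 0.162 FPKM at day 0, 1.5 and 1.17 at day 8 and 13.8 and 15.4 at day 16 (day 0 to 16, 3.77 ± 0.18, adjusted p = 2.28e-06). Tnnt2, cardiac troponin T, was listed at 0 at day 0 and was at 1.42 and 2.09 and then at 12 and 8.89 (adjusted p = 2.2e-05). Tnni1, the slow troponin I of the fetal heart, was at 0 and 0.256, then 1.31 and 1.72, then 9.67 and 7.87. In all 3 the day 16 libraries lay above the day 8 libraries, which lay above those of day 0.

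Tnnc1, the troponin C shared by heart and slow muscle, differed in timing: it was listed at 0 at day 0, at 6.29 and 9.18 at day 8 and at 5.27 and 7.38 at day 16. The ventricular light chain Myl2 was listed at 0 and then at 3.92 and 4.08, the atrial light chain Myl4 rose from 1.67 and 0.481 to 12.1 and 9.57, and Myh7, beta myosin heavy chain, rose from 0.358 and 0.858 to 4.27 and 5.03. Nkx2-5, a homeobox factor of the heart field, was at 1.22 and 0.311 and then at 0.652 and 1.86, overlapping groups (adjusted p = 0.487). Summed over the 4 markers of heart muscle (Tnnt2, Myh6, Myl7 and Actc1), the 1343KO line had 37.3 and 39.2 FPKM at day 16 and WT 24.2 and 38.2. Only 1 cardiac gene was called higher and 1 lower in the difference between the lines: Actc1 had a difference of 1.07 ± 0.26 (adjusted p = 0.00957) and Mef2c, a factor of heart and muscle, of -1.62 ± 0.50 (adjusted p = 0.0297). The call of Mef2c ended without any 1 of the WT libraries of days 0 and 16 (adjusted p = 0.0614, 0.0732, 0.077 and 0.0741), without either 1343KO day 0 library (0.0538 and 0.0792) and without day 16 replicate 1 (0.0982).

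**Figure D3:**
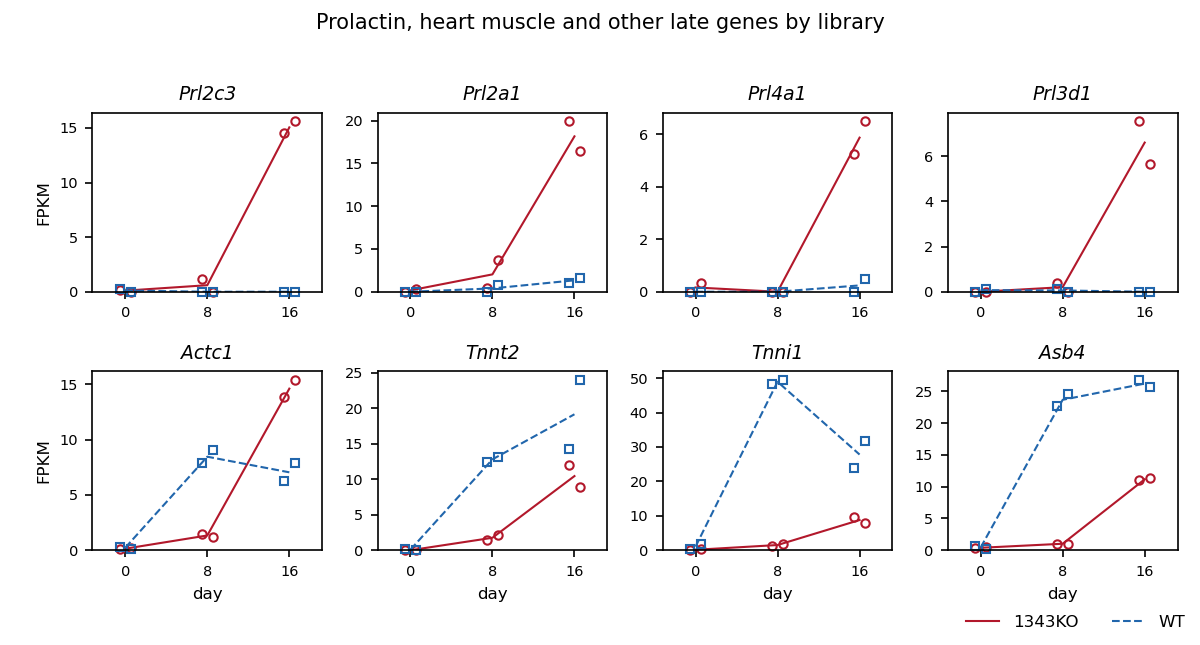
FPKM (vertical axes, linear, each from 0) of 4 prolactin genes, 3 sarcomere genes and Asb4 at days 0, 8 and 16; circles are 1343KO libraries, squares WT libraries, and lines join group means. The prolactin genes reach 5.25 to 19.9 FPKM in the 1343KO day 16 libraries and stay at or below 1.66 in WT at day 16, and Actc1 rises between day 8 and day 16 in the 1343KO line.

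Mesoderm transcription factors rose to low levels. Of 22 entries 19 were tested, with 14 higher and 1 lower (median 1.12), against 18.2% higher and 8.6% lower over all genes. Hand2, which shapes heart and limb, rose from 0.796 and 0.298 to 6.63 and 5.72, Pitx1, a hindlimb factor, from 0.506 and 0.178 to 3.94 and 3.24, and Msx1, a homeobox target of BMP, from 0.832 and 0.817 to 3.63 and 3.73. Twist2, Tbx2 and Prrx1, factors of mesenchyme, were at 2.08 and 2.47, 1.83 and 1.98, and 1.55 and 2.47 at day 16. The WT line reached more for each at day 16, for instance 33.8 and 36.2 for Hand2. In the test of the difference 13 of the 19 factors had a lower change in the 1343KO line, against 18.2% of all genes.

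Endoderm genes rose, while most plasma protein genes of yolk sac and liver were not called. Of 22 entries of the definitive endoderm and gut list 20 were tested, and 13 rose, with 0 lower (median 1.16). Over all genes 18.2% rose and 8.6% fell. Foxa2, the forkhead factor of endoderm and node, rose from 0.538 and 0.655 to 7.32 and 6.88 (2.34 ± 0.22, adjusted p = 8.15e-05), and the zinc finger factor Gata4 from 3.25 and 2.04 to 11.7 and 13.7. Sox17, an endoderm factor, was at 0.288 and 3.16 and then at 11.6 and 7.02 (adjusted p = 0.00837, but 0.0618 without day 16 replicate 1 and 0.139 with the 4 compared libraries alone). Gata6 was at 1.58 and 4.38 and then at 7.3 and 5.88 (adjusted p = 0.0385), a call that ended without day 0 replicate 1 (0.197), day 16 replicate 1 (0.168) or day 16 replicate 2 (0.0835). Cxcr4, the chemokine receptor used to sort endoderm, rose from 0.542 and 0.616 to 5.31 and 6.37. Trh, the thyrotropin-releasing hormone, was already at 79 and 81 at day 0 and rose to 291 and 269. The stomach proteins Pga5 (a pepsinogen) and Gkn2 (a gastrokine) went from 0.844 and 0.839 to 31.1 and 30.3 and from 0 and 1.15 to 21.8 and 25.9, with changes of 4.11 ± 0.25 and 4.08 ± 0.34. Cyp26a1, which breaks down retinoic acid, rose from 0.277 and 0.259 to 21.1 and 18.3.

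Of 26 entries among plasma proteins of yolk sac and liver 23 were tested, with 5 higher and 2 lower (median 0.12). These shares were near the 18.2% higher and 8.6% lower of all genes. Afp, the fetal plasma protein, was at 58.7 and 36.9 at day 0 and at 43.1 and 29.5 at day 16, overlapping groups (adjusted p = 0.23). Trf (transferrin) was at 9.22 and 12.1 and then at 9.53 and 5.64 (adjusted p = 0.171), and Apoa1 at 6.07 and 9.26 and then at 12.8 and 11.9 (adjusted p = 0.128). These 3 had no call over 16 days in the 1343KO line, but Afp was called lower without day 0 replicate 2 (-0.70, adjusted p = 0.0392) and Trf without day 16 replicate 1 (-0.80, adjusted p = 0.0405). Ttr (transthyretin), a thyroid hormone carrier, rose from 4.89 and 4.5 to 7.92 and 9.71 (0.78 ± 0.13; adjusted p = 0.00205, and 0.0695 with the 4 compared libraries alone), and Apoe, a lipid carrier that many cell types make, rose from 234 and 262 to 598 and 628. In WT Afp stood at 8246 and 8139 at day 16. By the test of the difference 20 of the 23 genes had a lower change in the 1343KO line, against 18.2% of all genes. The largest such difference of any named gene was that of Afp, -7.91 ± 0.30 (adjusted p = 3.64e-07).

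Basement membrane genes, which ES cells switch on when an outer endoderm layer forms, rose: 13 of 20 were higher and 1 lower (median 1.11). Over all genes 18.2% rose and 8.6% fell. The type IV collagens Col4a1 and Col4a2, transcribed from 1 shared promoter region, rose together, from 10.8 and 13.5 to 58.2 and 47.9 and from 6.88 and 6.18 to 41 and 38.5. Laminin chains Lama1 (1.08 ± 0.11) and Lamb1 (0.73 ± 0.09) and the matrix glycoprotein Sparc (70.2 and 65.3 to 178 and 172) rose too. Hspg2, the perlecan core protein, was the one that fell (37.5 and 36.7 to 23 and 23.5). Levels at day 16 were below those of WT for Col4a1 (301 and 302) and Sparc (1165 and 1161), and WT had also begun higher (73.6 and 59 for Col4a1, 152 and 150 for Sparc). The difference in change between the lines was -0.14 ± 0.19 for Col4a1 (adjusted p = 0.592) and -1.58 ± 0.07 for Sparc (adjusted p = 1.14e-06).

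Epithelial genes rose with the keratins in front. Of 21 entries 20 were tested, with 11 higher and 2 lower, against 18.2% higher and 8.6% lower over all genes. Krt8 and Krt18, the keratin pair of simple epithelium, trophoblast and endoderm, rose from 21.7 and 22.4 to 112 and 118 and from 27.1 and 25.3 to 160 and 179 (2.33 ± 0.07 and 2.65 ± 0.09). Krt19 rose from 4.26 and 2.84 to 22.3 and 25.2, and the tight junction genes Cldn3 and Cldn7 from 4.95 and 3.17 to 14.8 and 14.8 and from 10.6 and 10.7 to 32.1 and 32.6. Krt8 and Krt18 had been higher at day 8 (164 and 151, 255 and 227). Their falls after day 8 were called, but not without any 1 of the 4 libraries compared (adjusted p between 0.0618 and 0.128 for Krt8 and between 0.0928 and 0.209 for Krt18). Epcam, an adhesion protein of ES cells and epithelia, was at 112 and 102 and then 126 and 116 (adjusted p = 0.129).

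Few macrophage genes were called, and fibroblast matrix genes rose to levels below those of WT. Of 20 macrophage entries 19 were tested, with 1 higher (Csf1r, the CSF1 receptor, 0.267 and 0.268 to 2.11 and 1.46) and 1 lower (Laptm5, 18.6 and 18.8 to 3.43 and 3.71). The defining markers C1qa, Adgre1 and Tyrobp were at or under 1 FPKM in both day 16 libraries, and Tyrobp was listed at 0 in both. All 19 had a lower change than in WT, against 18.2% of all genes in the test of the difference. Adgre1, Mrc1, C1qa and Tyrobp reached the filter of 1 FPKM only through WT libraries, so their direction was largely fixed beforehand. The count of 19 is therefore not read as a result. Fibroblast matrix genes rose from low levels, 15 of 24 higher and 1 lower (median 0.62). For macrophage and fibroblast lists alike, the shares over all genes were 18.2% higher and 8.6% lower. Col3a1, a fibrillar collagen, went from 6.72 and 4.17 to 17.8 and 18.3, and Postn (periostin) from 1.79 and 1.32 to 7.74 and 6.28, whereas Col1a1 was at 6.15 and 4.12 and then at 5.81 and 5.76 (adjusted p = 0.466). In WT at day 16 those genes stood at 855 and 892, 298 and 293, and 937 and 1018. Of the 24, 23 had a lower change in the 1343KO line, against 18.2% of all genes.

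Vessel genes rose: 10 of 20 were higher and 1 lower (median 0.61), against 18.2% higher and 8.6% lower over all genes. Kdr, the receptor of vessel and blood precursors, rose from 0.243 and 0.887 to 3.76 and 4.21, Flt1, another VEGF receptor, from 0.879 and 0.996 to 6.86 and 6.54, and Cdh5, the cadherin of endothelium, from 0.812 and 0.623 to 4.07 and 5.46. Of 21 blood genes 4 rose, a share near the 18.2% of all genes called higher: the embryonic globin Hba-x (2.33 and 1.16 to 9.51 and 8.03), the beta-like globin Hbb-y (to 2.83 and 1.75), and the factors Runx1 (0.338 and 0.524 to 1.87 and 2.43) and Myb (1.92 and 2.19 to 7.73 and 9). The embryonic globin Hbb-bh1 had overlapping groups (7.17 and 4.08, then 7.49 and 17.6; adjusted p = 0.121). The call of Hbb-y ended without day 0 replicate 1 (adjusted p = 0.173), day 16 replicate 1 (0.164) or day 16 replicate 2 (0.0639). The red cell factors Gata1 and Klf1 were at or under 1 FPKM in both day 16 libraries. Of 38 Hox genes 25 were tested; 1 rose and 3 fell, none was called lower without day 16 replicate 1, and 1 was called lower without day 0 replicate 2. The 3 falls were a share near the 8.6% of all genes called lower. In WT 18 of the 25 rose, against 32.7% of all genes. A lower change in the 1343KO line was called for 19, against 18.2% of all genes. Several of the 25, among them Hoxc8, Hoxc9 and Hoxc10, reached 1 FPKM only in WT libraries of days 8 and 16. For these the filter favoured a WT rise and a lower 1343KO change, so neither count is read as a result. Of 24 neural genes 20 were tested, with 5 higher and 4 lower (median 0.01, and -0.06 with libraries scaled by median of ratios). The share of rises was near the 18.2% of all genes, and 8.6% of all genes fell. Each single library left out gave 3 higher. Nes (nestin), a filament of neural and other precursors, rose from 4.68 and 5.16 to 8.27 and 8.37 (adjusted p = 0.0063, and 0.0671 with the 4 compared libraries alone). Neurod1, a proneural factor, fell from 11.2 and 7.72 to 0.857 and 0.691, and Stmn2, a neuronal microtubule regulator, from 81.6 and 82.1 to 20.9 and 17.7. Pax6 was at 6.12 and 6.62 and then at 4.88 and 3.72 (adjusted p = 0.165). Smooth muscle and actin genes had 9 of 18 higher, led by Acta2, smooth muscle actin (6.97 and 6.7 to 34.1 and 35.3), with Myh11, the marker of mature smooth muscle, at or under 1 FPKM in both day 16 libraries.

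Beyond lineage genes, several housekeeping groups shifted. Glycolysis and hypoxia genes rose: 18 of 24 were higher and 1 lower (median 0.79), against 18.2% higher and 8.6% lower over all genes. Pgk1 went from 213 and 205 to 536 and 523, Ldha from 491 and 498 to 740 and 760, the glucose transporter Slc2a1 from 133 and 131 to 249 and 240, and the hypoxia target Bnip3 from 27.5 and 27.7 to 110 and 109. Hk1 rose (log2 change 1.51 ± 0.16) while Hk2, the hexokinase of growing cells, fell (38.2 and 40 to 28.5 and 25.5), and Gapdh was at 1504 and 1497 and then at 1568 and 1602 (adjusted p = 0.19). The change differed between the lines for 16 of these genes in the direction of higher in the 1343KO line, against 21.7% of all genes. Among them were Pkm (1.48 ± 0.08) and Eno1 (1.48 ± 0.09), which both fell in WT. Of 22 oxidative phosphorylation genes 0 rose and 1 fell.

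Lysosomal genes rose almost as a block, 23 of 24 higher and 0 lower (median 0.96). Over all genes 18.2% rose and 8.6% fell. Hexa, a hexosaminidase, rose from 10.1 and 10.5 to 48.8 and 45.1 (2.08 ± 0.08), Lamp2, a membrane protein of lysosomes, from 11.7 and 13.4 to 39.5 and 38.9, and Npc2, a cholesterol carrier, from 16.1 and 15.9 to 48.8 and 43.3. For 22 of the 24 the WT rise was larger by the test of the difference, and 18.2% of all genes had a lower change in the 1343KO line. Among imprinted genes, expressed from 1 parental copy and many of them regulators of fetal growth, 20 of 26 tested rose and 1 fell (median 0.99). H19, a noncoding RNA, rose from 20.8 and 17.2 to 218 and 216 (3.45 ± 0.09), and its neighbour Igf2, the fetal growth factor, from 60.3 and 45.6 to 434 and 433 (3.02 ± 0.11). Dlk1 rose from 11.2 and 11.6 to 58.2 and 62.9 and Peg3 from 12.9 and 13.1 to 62.2 and 59.9. Igf2 in WT was at 3515 and 3477 at day 16. Of the 26, 20 had a lower change in the 1343KO line, against 18.2% of all genes.

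Class I presentation and interferon genes had 14 of 23 tested higher and 0 lower (median 1.17). For this and the next lists, the shares over all genes were 18.2% higher and 8.6% lower. B2m, the light chain of class I molecules, rose from 13 and 13.8 to 44.6 and 48.3, the heavy chain H2-D1 from 6.71 and 5.05 to 14.2 and 15.7, and Psmb8, an immunoproteasome subunit, from 0.499 and 0.143 to 7.37 and 5.56. In the other direction, 15 of 19 tested genes of the amino acid and ATF4 response fell and 1 rose (median -0.72). Psat1, of serine synthesis, fell from 115 and 116 to 32.8 and 35.7, the mitochondrial folate enzyme Mthfd2 from 47.8 and 46.5 to 13.4 and 14.7, Chac1, a glutathione-degrading target of ATF4, from 8.03 and 8.84 to 1.08 and 0.568, and Atf4 from 123 and 126 to 82.3 and 79.9. Of 24 p53 targets 2 rose and 10 fell. Mdm2, the p53 ligase, fell from 78.8 and 76.9 to 50.7 and 54.9 and Trp53 itself from 236 and 230 to 174 and 173, while Cdkn1a, the p21 inhibitor, rose from 16.7 and 14.2 to 32.1 and 40.9.

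Growth genes fell modestly. Of 35 ribosome biogenesis genes 27 fell and 0 rose (median -0.46), against 8.6% lower and 18.2% higher over all genes. Ncl (nucleolin) was at 727 and 704 and then at 453 and 456 (-0.65 ± 0.05, adjusted p = 1.91e-05), Mybbp1a, a nucleolar cofactor of ribosomal RNA synthesis, at 133 and 132 and then at 92.5 and 94.6, and Fbl (fibrillarin) at 188 and 191 and then at 187 and 181 (adjusted p = 0.822). Myc, which drives this program, fell from 36.4 and 37.4 to 11.9 and 10.1. In WT all 35 fell (28.5% of all genes did), and all 35 differed between the lines (40% of all genes did). The list of cytosolic ribosomal proteins also holds paralogues, and pseudogenes such as Rps4l and Rps3a2. Its members moved little and upwards: of 89 tested 46 rose and 3 fell, namely Rpl15, Rpl7l1 and Rpl10l (median 0.24). That count depends on scaling and on single libraries, with 23 higher under median-of-ratios scaling and between 18 and 25 higher with 1 library left out (25 without day 0 replicate 1, 21 without day 0 replicate 2, 23 without day 16 replicate 1 and 18 without day 16 replicate 2).

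Cell division genes were near their day 0 levels. For the counts of division and DNA replication genes, the shares over all genes were 18.2% higher and 8.6% lower. Of 24, 1 rose and 4 fell (median -0.15), 10 fell under median-of-ratios scaling, and with 1 library left out between 0 and 2 fell (1 without day 0 replicate 1, 2 without day 0 replicate 2, 0 without day 16 replicate 1, 2 without day 16 replicate 2). Top2a, a topoisomerase of dividing cells, was at 160 and 158 and then at 154 and 142 (adjusted p = 0.316, and 0.0484 under median-of-ratios scaling), and Mki67 at 32.7 and 30.2 and then at 34.1 and 32.6 (adjusted p = 0.513). Of 26 DNA replication genes 1 rose and 4 fell, with 9 lower under median-of-ratios scaling and 2 lower without day 0 replicate 1. Ccnd1, a G1 cyclin, fell from 69.2 and 63.6 to 26.3 and 25.4, and the inhibitor Cdkn1b rose from 15.2 and 13.2 to 27.1 and 30.7. The WT line had all 24 division genes lower at day 16 (median -1.29, with 28.5% of all genes lower). Of them 23 differed between the lines, against 40% of all genes.

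Several of the largest changes fell outside the lists above. Amot, which holds back YAP at cell junctions, rose from 4.06 and 3.78 to 67.2 and 68.6 (3.81 ± 0.08, adjusted p = 4.02e-08), with day 8 at 37.2 and 39.3. Igfbp5, which binds insulin-like growth factors, rose from 1.22 and 0.975 to 25.3 and 23.7. Mras, a Ras family GTPase, fell from 14.7 and 17.1 to 0.933 and 1.09 (-3.07 ± 0.20), and the WT values of 10.3 and 13 at day 16 gave a difference between the lines of -2.72 ± 0.28. Cobl, an actin nucleator, fell from 33.9 and 36.1 to 4.62 and 4.92, Adap1 from 18.3 and 21 to 2.59 and 1.97, Urah from 15.3 and 11.3 to 1.22 and 0.353, and Tgm1, a transglutaminase, from 13 and 10.7 to 0.461 and 1.32. Among noncoding RNAs Halr1, which lies by the Hoxa cluster, fell from 96.2 and 85.8 to 13.8 and 10.2. In each of these genes both day 16 libraries lay on 1 side of both day 0 libraries.

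Few genes moved in the second part of the culture. From day 8 to day 16, 131 genes were called in the 1343KO line (0.804% of those tested), 98 higher (0.602%) and 33 lower (0.203%). This comparison uses the same day 16 libraries as the main one. Leaving out any 1 of its 4 libraries cut the count to between 36 and 56: 56 without day 8 replicate 1, 36 without day 8 replicate 2, 40 without day 16 replicate 1 and 39 without day 16 replicate 2. The largest rises were those of prolactin genes, with Prl2c3 at 3.43 ± 0.33 (adjusted p = 0.00223), Prl2a1 at 2.90 ± 0.50 (adjusted p = 0.0359), Prl2c2 at 2.82 ± 0.21 and Prl4a1 at 2.77 ± 0.24. Prl2c3 entered the test only through the day 16 libraries, which favours its rise. The call of Prl2a1 ended without day 8 replicate 1 (0.0817), day 16 replicate 1 (0.188) or day 16 replicate 2 (0.13). Next came Actc1 (2.74 ± 0.18, adjusted p = 0.000367), Prl3d1 (2.67 ± 0.23, adjusted p = 0.00102) and Asb4, a placental and vascular ubiquitin ligase subunit, which went from 0.992 and 1.05 to 11 and 11.3. Hand2 rose by 2.09 ± 0.21 in that interval, the imprinted Dlk1 by 1.69 ± 0.19 and Mest, another imprinted gene, by 0.82 ± 0.08. The call of Dlk1 ended without day 16 replicate 2 (adjusted p = 0.0545), and those of Prl2c3, Prl2a1, Prl2c2 and Prl3d1 with a pseudocount of 0.1 (adjusted p = 0.0944, 0.249, 0.0596 and 0.0521). In a fit of the 6 1343KO libraries alone 10 genes were called. That fit ended the calls of Prl2c3 (adjusted p = 0.122), Prl2a1 (0.237), Prl4a1 (0.0607) and Prl3d1 (0.091). It also ended those of Hand2 (0.123), Dlk1 (0.156) and Mest (0.091). Of the imprinted list 7 of 26 rose after day 8, and of the general and naive pluripotency lists 0 of 42 were called.

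Among the genes that fell after day 8 were endocytic and secreted products of yolk sac endoderm. Cubn, an endocytic receptor of that layer, had risen from 1.43 and 1.51 at day 0 to 4.89 and 5.31 at day 8 and was at 0.61 and 0.871 at day 16 (day 8 to 16, -1.81 ± 0.12, adjusted p = 0.000367). Lgmn (legumain, a lysosomal protease) went from 12.6 and 16.2 to 61.1 and 61 and back to 24.7 and 21.6, and the secreted peroxidase Gpx3 from 19.2 and 18 to 75.5 and 68.1 and then 30.1 and 28.9. Apoc2 (2 and 2.77, then 13.7 and 9.81, then 2.37 and 3.52) and the calcium-binding S100g followed the same course. The call of Apoc2 ended without day 8 replicate 1 (adjusted p = 0.0734) or day 16 replicate 1 (0.0806), and that of S100g without day 8 replicate 2 (0.0646) or day 16 replicate 1 (0.053). With the 6 1343KO libraries alone the falls of Cubn (adjusted p = 0.102), Lgmn (0.106), Apoc2 (0.174) and S100g (0.125) were not called. Each was higher at day 8 than at both ends. Of 23 tested plasma protein genes 5 fell after day 8 and 0 rose.

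The test of the difference in change between the lines passed for 6512 genes, 3540 with a higher change in the 1343KO line and 2972 with a lower one (18.2%). Median-of-ratios scaling turned this split to 2772 higher and 3583 lower. In WT alone 9972 genes (61.2%) were called over the same days. Large differences in the direction of higher in the 1343KO line were those of Trh (5.39 ± 0.12), Lefty2 (4.88 ± 0.24), Lefty1 (4.51 ± 0.22), Utf1 (4.45 ± 0.15) and Esrrb (4.31 ± 0.17). In the direction of lower they included those of Afp, the plasma protein Spp2 (-7.85 ± 0.26), Col1a1 (-7.09 ± 0.21) and Trf (-6.89 ± 0.32). Genes with no called difference included Klf4 (difference -0.27 ± 0.21, adjusted p = 0.332), Socs3 (-0.07 ± 0.17, adjusted p = 0.78) and Tet2 (-0.19 ± 0.17, adjusted p = 0.405). Bnip3 was not called either (-0.24 ± 0.15, adjusted p = 0.227), but was under median-of-ratios scaling (-0.43, 0.0367) and without WT day 0 replicate 2 (-0.42, 0.0109). A p above the threshold does not show that such changes are equal.

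**Figure D4:**
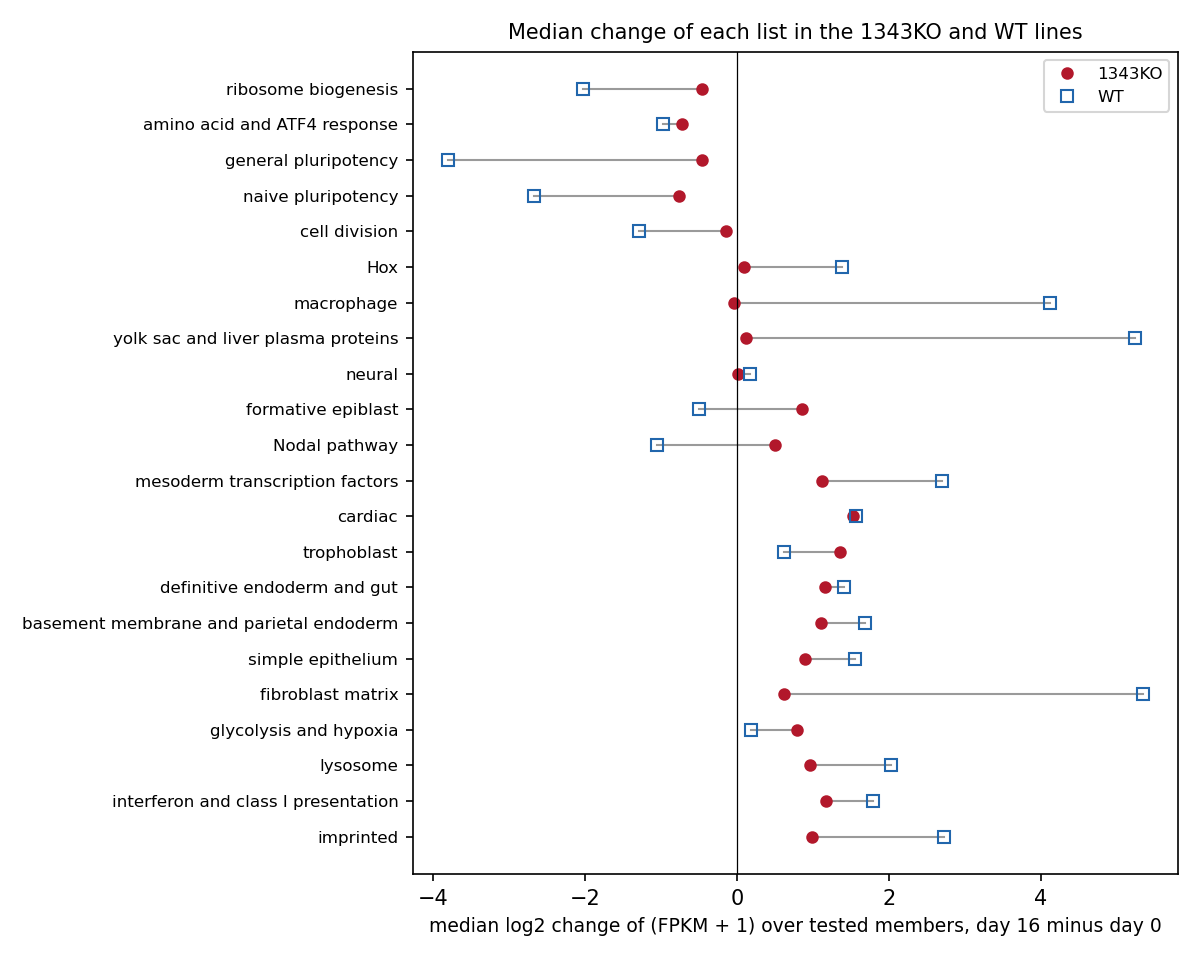
Median change from day 0 to day 16 (horizontal axis, log2 of FPKM + 1) over the tested members of each list, circles for the 1343KO line and squares for WT. The lines lie close for the cardiac list (1.53 and 1.56) and far apart for general pluripotency (-0.46 and -3.81), yolk sac and liver plasma proteins (0.12 and 5.24) and fibroblast matrix (0.62 and 5.34).

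The labelled cell type was compared with marker genes, whose FPKM were added over all markers of a cell type. The 6 ES cell markers summed to 3368 and 3424 FPKM in the 1343KO libraries at day 0 and to 2100 and 2103 at day 16, and to 102 and 115 in WT at day 16. The 4 formative markers went from 102 and 104 to 245 and 259. Trophoblast markers summed to 22.6 and 21.3 and heart markers to 37.3 and 39.2 at day 16, fibroblast markers to 40 and 36 (2815 and 2882 in WT), macrophage markers to 2.38 and 1.71 (110 and 113 in WT) and visceral endoderm markers to 73.1 and 58.2 (10274 and 10304 in WT). The label of ES cells thus matched its markers in the 1343KO libraries at day 16 more than in the WT libraries of that day. Which share of the other changes came from mixtures of cell types was not tested.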

How the data were processed

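Poly(A)-selected RNA was sequenced from 12 libraries of 2 mouse ES cell lines at days 0, 8 and 16, 2 libraries per line and day. The authors deposited 1 table of FPKM per gene (54537 genes), made with Cufflinks 2.1.1 on GRCm38 (mm10), per the submitters' processing notes. For aligner and annotation, the labels name none. Of the gene identifiers, 99.9% were found in GENCODE M21.

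The 16289 genes that reached 1 FPKM in 2 or more libraries entered the test as log2(FPKM + 1) with limma 3.58.1 in R 4.3.3, with 1 mean per line and day over all 12 libraries, a variance trend and 6 residual degrees of freedom. P-values were adjusted by Benjamini-Hochberg within each comparison, and genes under 0.05 were called. With 2 libraries against 2 no exact permutation test over samples could reach that threshold. The script was tested on simulated data. FPKM keep no counts. Steps in the low values of transcripts of at least 1500 bases gave between 4820000 and 7930000 fragments per library, assuming 200-base fragments, with 86.1% to 88.9% of these values within 5% of a whole fragment, so no count test was run.

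Members, gene lists (47, with 1082 entries) and markers were chosen with earlier results of these data known. Named genes were drawn from a rule, and not all that it covers are printed: the 15 largest called changes in each direction without overlap over 16 days, the 15 largest differences between the lines and the 10 largest changes from day 8, a set of marker genes, and, for each list, called members with the smallest p (up to 6 in each direction) or a called difference between the lines. Genes that were not called, and some examples such as Axin2, Etv5 and Gapdh, were chosen after their values were seen. Alternatives changed the pseudocount, the filter, the scaling, the replicate block, the variance estimate, a minimum change, the chromosomes and the libraries fitted.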

Additional observations from a re-analysis of the deposited data

Results flagged for a closer look

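Some genes named above were called in opposite directions in the 2 lines between day 0 and day 16, and the difference itself was called by limma (253 genes higher in the 1343KO line and 66 lower, together 1.96% of those tested). Those that rose in the 1343KO line and fell in WT had the following differences in log2 change. Trh, the releasing hormone, differed by 5.39 and the Nodal inhibitors Lefty2 and Lefty1 by 4.88 and 4.51. The rise of Lefty1 in the 1343KO line was not called in limma without any 1 of its 4 libraries (adjusted p between 0.0545 and 0.16). The difference was 3.71 for Dppa3, 3.39 for Dnmt3b and 3.27 for Klf2. Among patterning and signalling genes it was 3.14 for Eomes, 2.76 for Dkk1, 2.65 for Zic5, 2.60 for Dusp4, 2.33 for Pim2 and 2.33 for Tcf7. It was 2.84 for the blood factor Myb, and 1.48 for each of the glycolytic genes Eno1 and Pkm.

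Those that fell in the 1343KO line and rose in WT were Hspg2 (difference -1.21), Stat3 (-1.55), Cubn (-1.85) and Laptm5 (-2.74). The fall of Cubn over 16 days in the 1343KO line was not called without day 0 replicate 2 (adjusted p = 0.0601) or without day 16 replicate 1 (adjusted p = 0.0797) in limma.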

How the results depend on the processing

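Most counts moved by less than 1.5 times under the alternatives. With a tested minimum log2 change of 1, the calls fell to 279 for day 0 to 16 and 8 for day 8 to 16 in the 1343KO line, to 1110 for the difference between the lines and to 3090 for WT. Fitting the 4 compared libraries alone gave 2246 calls, and the 6 1343KO libraries alone gave 10 from day 8 to 16, both with fewer libraries behind the spread. Leaving out 1 library gave 2906 to 3234 calls from day 0 to 16 and 36 to 56 from day 8 to 16, each fit taking the lone library to vary like the other groups. The replicate numbers did not pair the samples: differences between replicates correlated between groups at -0.04 to 0.04. With the replicate block 4276, 114 and 6420 genes were called for day 0 to 16, day 8 to 16 and the difference between the lines. Of 217 calls of single genes followed, 28 ended under some alternative other than the minimum change and 15 by leaving out a library; no direction was reversed. With the 4 libraries alone the rises numbered 8 in the Wnt list, 7 in endoderm, 9 among mesoderm factors and 9 in fibroblast matrix. FPKM near 1 limit the low genes most, since 1 FPKM rests on few fragments at this depth.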

Other observations

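Further gene lists are given here by counts for the 1343KO line between day 0 and day 16, at an adjusted p under 0.05 in limma, where 18.2% of all genes were called higher and 8.6% lower. Of 20 genes of the mesenchymal transition 16 rose and 0 fell (median log2 change 1.03). Of 20 cell cycle inhibitors and G1 cyclins 8 rose and 3 fell (median 0.20). Of 17 tested Notch pathway genes 5 rose and 1 fell, and of 17 tested genes of surface and stratified epithelium 6 rose and 2 fell. Of 16 Lin28 and let-7 target genes 5 rose and 5 fell. Of 22 metallothionein and oxidative stress genes 7 rose and 9 fell, with 5 lower without day 16 replicate 2. Of 15 tested noncoding host genes of snoRNAs 2 rose and 0 fell, and of 13 genes of the mitochondrial genome 1 rose and 0 fell.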
